A study of Mus musculus with 6 samples.

Results

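The 7 named 3p arms of the mouse let-7 family were examined in macrophage exosome libraries: mmu-let-7d-3p, mmu-let-7f-1-3p, mmu-let-7a-1-3p, mmu-let-7c-2-3p, mmu-let-7b-3p, mmu-let-7e-3p and mmu-miR-98-3p. The prefix mmu, for mouse, is dropped from here on. The 7 arms were taken by name from a table of 707 mature microRNAs (miRNAs), and all 7 were present. let-7a-1-3p and let-7c-2-3p held identical counts in all 6 libraries, so the 7 names stand for 6 distinct rows. Exosomes are small vesicles that cells release. They came from the culture supernatant of bone marrow-derived macrophages of C57BL/6 mice, 3 samples from wild-type (WT) mice and 3 from mice of the Roquin-1 san:san genotype. Roquin-1 is an RNA-binding repressor that triggers degradation of its target transcripts, and san stands for the sanroque mutation in it. No treatment was given in the labels, and the labels do not say if each replicate is its own mouse or culture, so p-values cover only the spread among these 6 samples, and that spread could be technical.

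A miRNA precursor folds into a hairpin, from which Dicer cuts a short duplex of a 5p and a 3p arm. One arm is usually kept by an Argonaute protein as the guide, and the other, the passenger, is usually degraded. In the let-7 family, which represses growth and cell-cycle genes and whose processing is blocked by LIN28, the 5p arm is the well-known guide and the 3p arm is commonly called the passenger strand.

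The 3p sequences are shown because their seeds set apart the groups compared here. All 7 names matched the RefSeq miRNA table of build GRCm38.p6. Each sequence runs 5′ to 3′, and the capitals mark the seed, bases 2 to 8, with which a miRNA pairs to its targets.
let-7d-3p: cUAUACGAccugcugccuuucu
let-7e-3p: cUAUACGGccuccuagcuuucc
miR-98-3p: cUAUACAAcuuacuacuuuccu
let-7b-3p: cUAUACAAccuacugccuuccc
let-7f-1-3p: cUAUACAAucuauugccuuccc
let-7a-1-3p: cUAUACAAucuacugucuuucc
let-7c-2-3p: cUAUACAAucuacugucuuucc

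All 7 were 22 nucleotides long, so no correction for length was made, and all began with the same 6 bases. Whether the libraries captured different sequences equally well was not tested, so levels of different arms are compared as counts only. The seed UAUACAA was shared by 5 of them and by no other of the 1679 mature names in the RefSeq table. let-7d-3p (UAUACGA) and let-7e-3p (UAUACGG) each had a seed of their own there. let-7a-1-3p and let-7c-2-3p were identical over all 22 bases, so a read of that sequence cannot be given to either hairpin. The other 20 pairs differed at 2 to 8 positions. The closest were let-7f-1-3p and let-7b-3p, with 2 mismatches, while miR-98-3p differed from every other member at 4 or more.

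The hairpins lie in 4 places in GRCm38. Mirlet7a-1, Mirlet7f-1 and Mirlet7d sit together on chromosome 13, with gaps of 261 and 1714 bases, and each overlapped an exon of the long noncoding RNA gene 6720427I07Rik in the GENCODE annotation. Mirlet7c-2 and Mirlet7b are 621 bases apart on chromosome 15, in exons of the noncoding transcript Lncppara. Mirlet7e lies inside Spaca6, outside its annotated exons, on chromosome 17. Mir98 lies 785 bases from Mirlet7f-2 inside Huwe1, which encodes a ubiquitin ligase, outside its annotated exons on chromosome X. The submitters used build mm9, so these positions serve as annotation only. The hairpins of let-7d (minus strand, chr13:48536012-48536114) and miR-98 (plus strand, chrX:151913214-151913321) are printed because the results below turn on the balance of their arms. Here the capitals mark the 5p arm and then the 3p arm.
let-7d hairpin: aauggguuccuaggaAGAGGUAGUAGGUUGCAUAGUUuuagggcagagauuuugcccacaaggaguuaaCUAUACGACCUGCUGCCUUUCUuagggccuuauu
miR-98 hairpin: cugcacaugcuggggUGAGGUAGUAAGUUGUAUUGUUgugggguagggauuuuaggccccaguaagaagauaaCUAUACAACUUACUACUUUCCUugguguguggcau

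The libraries held between 12447 and 28884 counts in WT and between 126098 and 185901 in san:san, so depth differed between the genotypes without overlap. Levels are given as CPM (reads brought to a common library size), adjusted by the trimmed mean of M values (TMM), and 1 count was worth 28.1 to 70.4 CPM in WT and 6.38 to 10.4 CPM in san:san. CPM values are relative, and a change in the number of vesicles from one cell source cannot be told apart from a change in their miRNA content. Macrophage and myeloid marker miRNAs (6 of 6 called higher) made up 4.13% to 5.07% of counts in WT and 9.47% to 11.2% in san:san. Erythroid markers (4 of 5 higher) made up 3.84% to 6.25% and 15.6% to 17.9%. miR-486a-5p and miR-486b-5p held identical counts, so the erythroid figures count the same values under both names and overstate the share. Both are among the 4 erythroid markers called higher. The single lymphocyte marker miR-150-5p, higher, made up 0.409% to 0.492% and 1.38% to 1.92%. The 2 endothelial markers, both higher, made up 1.82% to 3.69% and 3.37% to 6.96%. The 5 stromal markers (1 higher, 1 lower) made up 0.844% to 1.32% and 0.741% to 0.833%, and the liver marker miR-122-5p, which did not pass, 0.501% to 0.699% and 0.420% to 0.580%. The 4 epithelial markers were at 0 in every WT library and made up at most 0.0103% in san:san. Each averaged 13.8 to 32.5 CPM in san:san, while 1 count in WT was worth 28.1 to 70.4 CPM, so the WT zeros do not show absence. For these marker calls, the background over all 254 tested miRNAs was 34.6% called higher and 29.5% called lower (edgeR, adjusted p under 0.05).

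let-7d-3p was by far the most abundant of the 3p arms, and it was not the minor strand of its hairpin in 5 of 6 libraries. Its WT counts were 327, 604 and 356, and its san:san counts were 2063, 1802 and 1429. With the shared let-7a-1 and let-7c-2 row counted once, it made up 84.2% ± 0.687 of the member counts in WT and 81.7% ± 1.45 in san:san (SD, n = 3 per genotype throughout). Against its own 5p arm it had 71.9%, 58.8% and 48.4% of the hairpin's counts in WT, and the san:san shares were 58.0%, 58.4% and 56.7%. The 3p arm outnumbered let-7d-5p in 5 of 6 libraries, and in the remaining one, WT replicate 3, the share had an exact 95% binomial interval of 44.8% to 52.1%. Such intervals cover counting error only.

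The 6 other names were the minor arm in every library, so the term passenger strand matched their counts but not those of let-7d-3p. Summed over the libraries, a sum that the deeper san:san libraries dominate, the 3p arm held 25.6% of the counts of the miR-98 hairpin and 4.43% of those of let-7b. It held 1.97% for let-7f-1 and 0.693% for let-7e, which had only 13 reads of its 3p arm against 1862 of its 5p arm. The row shared by let-7a-1-3p and let-7c-2-3p came to 1.72% when set beside let-7a-5p and to 13.5% when set beside the less abundant let-7c-5p. The 5p arms of let-7a, let-7c and let-7f are each made from a pair of loci, so for let-7f-1 the share understates the 3p arm of the single hairpin. For let-7a-1 and let-7c-2 the 3p reads are pooled as well, and the share of either single hairpin cannot be told.

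**Figure D1:**
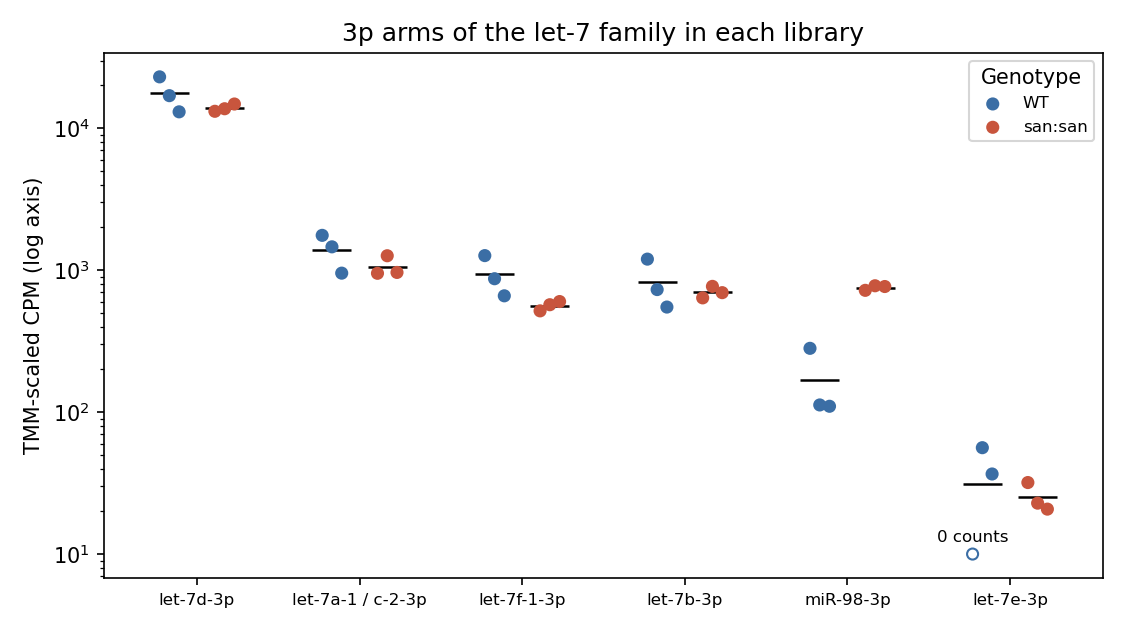
TMM-scaled CPM (log axis) of the 6 distinct 3p arms in the 3 WT and 3 san:san libraries; points are libraries, black lines are means, and the open point marks the WT library with 0 counts of let-7e-3p, drawn at the foot of the axis. The miR-98-3p points are the only ones whose san:san libraries all lie above the WT libraries, at 721 to 776 CPM against 110 to 281.

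The order of the 3p arms by level differed between the genotypes in the places of miR-98-3p, let-7f-1-3p and let-7b-3p. In WT, let-7d-3p averaged 17672 ± 5019 CPM, followed by let-7a-1-3p at 1391 ± 408, let-7f-1-3p at 932 ± 308, let-7b-3p at 825 ± 334, miR-98-3p at 168 ± 98.3 and let-7e-3p at 30.9 ± 28.5. The ranges of let-7a-1-3p, let-7f-1-3p and let-7b-3p overlapped with their neighbours in this order, although the order held inside each WT library. In san:san the order was let-7d-3p at 13897 ± 838 CPM, let-7a-1-3p at 1059 ± 177, miR-98-3p at 755 ± 29.7, let-7b-3p at 700 ± 65.6, let-7f-1-3p at 563 ± 42.7 and let-7e-3p at 25.2 ± 5.94. There the only neighbours with overlapping ranges were miR-98-3p and let-7b-3p. miR-98-3p thus stood below let-7f-1-3p and let-7b-3p in WT and above both in san:san, and let-7f-1-3p stood above let-7b-3p in WT and below it in san:san.

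miR-98-3p rose in san:san exosomes, and its partner arm did not pass the test. Its WT counts were 4, 4 and 3 and its san:san counts 113, 102 and 74, which is 281, 112 and 110 CPM against 721, 776 and 767 CPM. All san:san libraries lay above all WT libraries, as for 39.8% of tested miRNAs, and the shallowest library gave the highest WT value. Over the 6 distinct rows, this arm and let-7f-1-3p were the ones without overlap, against 70.9% of all tested miRNAs in either direction. The change was 5.18-fold (log2 2.37 ± 0.36, SE, edgeR quasi-likelihood adjusted p = 6.63e-05). Because WT held only 11 reads, counting error alone allows a ratio of scaled counts of 2.90 to 10.7 around a value of 5.27 (exact 95% interval). Among all 254 tested miRNAs 34.6% were called higher and 29.5% lower, so 1 call of either kind among 6 tested members is no more than the background.

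The measured rise of miR-98-3p kept its call whichever library was left out and whichever scaling was used. It passed in all 15 alternatives, with log2 values between 1.77 (total counts) and 2.65 (without WT replicate 1). The median log2 change of all tested miRNAs was 0.30 under TMM scaling, 0.04 under RLE scaling, 0.02 in DESeq2 and -0.30 under total counts. Without a single WT library the log2 change of miR-98-3p was 2.03 to 2.65, and without a single san:san library 2.32 to 2.40. Depth, and the myeloid, erythroid, lymphocyte and endothelial marker shares given above, moved with genotype as well, and their part in the rise was not tested.

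The miR-98 hairpin also changed in the balance of its arms, a ratio taken inside each library that needs no scaling between libraries. miR-98-5p, which carries the family's guide seed, was counted 40, 52 and 40 times in WT and 311, 263 and 168 times in san:san, or 1914 ± 780 and 1909 ± 146 CPM. The genotypes overlapped, and its log2 change of 0.08 ± 0.25 (edgeR adjusted p = 0.783) was negative with RLE factors, total counts and DESeq2, among other settings. The 3p arm took 9.09%, 7.14% and 6.98% of the hairpin's counts in the 3 WT libraries, and 26.7%, 27.9% and 30.6% in the san:san ones. The shares did not overlap, at 7.74% ± 1.18 and 28.4% ± 2.0 (two-sided exact permutation p = 0.1, and no smaller value is possible with 3 libraries a side). In WT replicate 1, with 44 reads of both arms, the exact 95% binomial interval reached from 2.53% to 21.7%, and in san:san replicate 1, with 424 reads, from 22.5% to 31.1%.

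**Figure D2:**
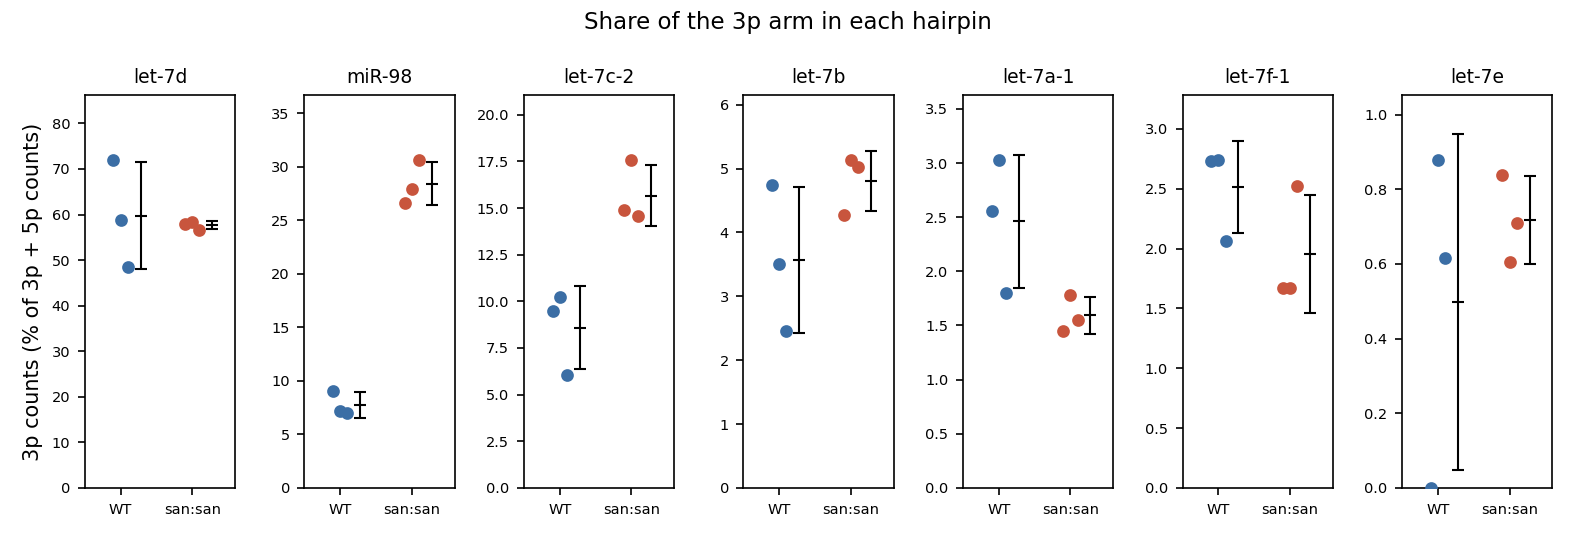
Counts of the 3p arm as a percentage of the 3p and 5p counts of the same hairpin, in 3 WT (blue) and 3 san:san (red) libraries; bars are the mean ± SD, and each panel has its own axis from 0. The miR-98 share rose from 7.74% to 28.4%, the let-7d share lay between 56.7% and 58.4% in san:san and between 48.4% and 71.9% in WT, and the let-7a-1 and let-7c-2 panels share one set of 3p counts.

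Across hairpins, the log2 ratio of 3p to 5p counts was tested with limma for 58 hairpins, those whose arms summed to 20 counts or more in each of the 6 libraries. A pseudocount of 1 in proportion to library size was added to each arm. The 3p arm gained on the 5p arm at 11 hairpins (19.0%) and lost at 13 (22.4%). Of the 7 member hairpins 2 (28.6%) were called, both toward the 3p arm, against 41.4% of all 58 in either direction. The ratio of miR-98 rose by log2 2.18 ± 0.26 (limma adjusted p = 5.50e-04), a 4.54-fold change that ranked 7 of 58 from the top. It passed in all 11 alternatives, with values from 1.94 to 2.31. Hairpins that share a 5p or a 3p name, or identical counts, are not independent in this test. miR-486a and miR-486b had identical values, and both are among the 13 hairpins called toward the 5p arm. Their 3p arm had a share of 1.06% in WT replicate 2 and no counts in any other library. The 3p arm of miR-150, also among the 13, likewise had 0.840% there and no counts elsewhere. Where an arm has no counts, the ratio follows the pseudocount and the level of the other arm. Such calls do not show a loss of the 3p arm, yet they are part of the background shares.

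The other called ratio, that of let-7c-2, depended on the 5p partner it was set against. Its 3p share was 9.51%, 10.2% and 6.05% in WT and 14.9%, 17.5% and 14.6% in san:san, without overlap (log2 1.02 ± 0.32, limma adjusted p = 0.0409). The same 3p counts set against let-7a-5p gave 2.56%, 3.02% and 1.80% in WT and 1.45%, 1.78% and 1.55% in san:san, also without overlap but lower (-0.60 ± 0.34, limma adjusted p = 0.200). Over all 58 hairpins the shares did not overlap at 44.8%, with san:san above at 24.1% and below at 20.7%. Set against the sum of let-7a-5p and let-7c-5p, a choice made after the data were seen, the 3p share was 1.95% ± 0.50 in WT and 1.47% ± 0.156 in san:san (log2 -0.38, limma adjusted p = 0.381). The 5p partners themselves differed, let-7c-5p being 2.60-fold lower in san:san (log2 -1.38 ± 0.19, edgeR adjusted p = 2.87e-05) and let-7a-5p standing at 0.24 ± 0.20 (0.294). The let-7c-2 call was also lost without any 1 of the san:san libraries (limma adjusted p = 0.0916 to 0.151).

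**Figure D3:**
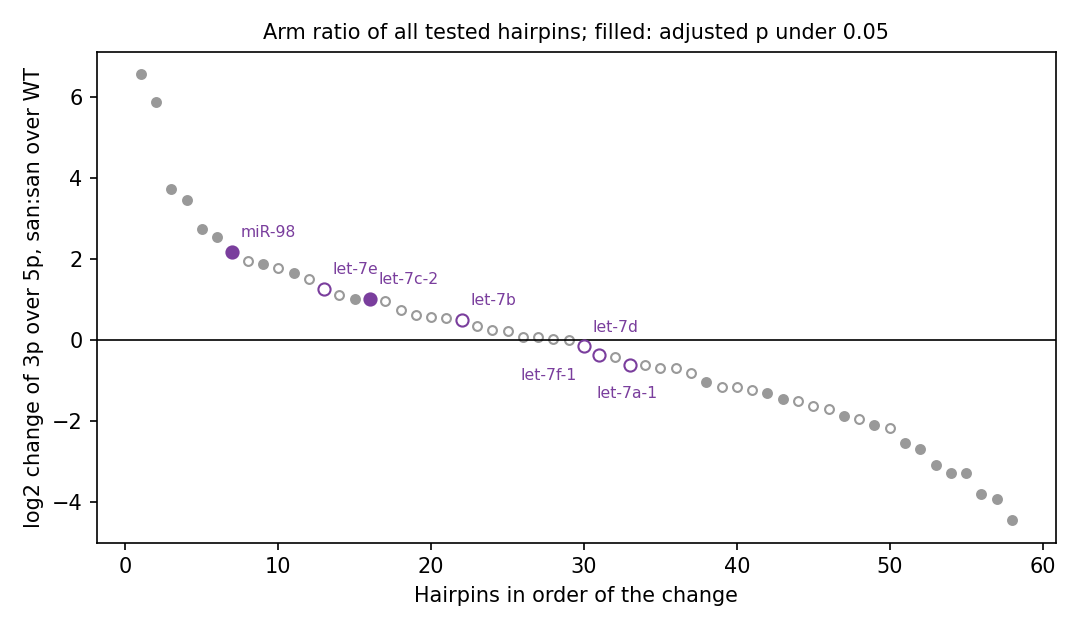
Change in the log2 ratio of 3p to 5p counts, san:san over WT, for the 58 tested hairpins in order of the change; filled points passed at an adjusted p under 0.05 in limma, and the 7 member hairpins are named in purple. miR-98 (2.18) and let-7c-2 (1.02) are filled, and the other 5 member hairpins lie between -0.60 and 1.27 and did not pass.

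let-7f-1-3p was the one member called lower in san:san. This arm, which shares its seed with miR-98-3p, was counted 18, 31 and 18 times in WT and 81, 75 and 58 times in san:san, or 1267, 870 and 660 CPM against 517, 571 and 601 CPM. All san:san libraries were below all WT libraries, as for 31.1% of the tested miRNAs. The level was 1.58-fold lower (log2 -0.66 ± 0.27, edgeR adjusted p = 0.0434). This call was lost without WT replicate 1 (adjusted p = 0.0722) or 2 (0.0676), without san:san replicate 1 (0.152) or 2 (0.119), and without a count filter (0.232). Its partner let-7f-5p stood at -0.29 ± 0.22 (0.254) and was called lower with RLE factors (0.0463), DESeq2 (0.0487) and total counts (0.00250). The ratio of the arms did not pass (-0.37 ± 0.35, limma adjusted p = 0.409).

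let-7d-3p stood at 23009, 16961 and 13047 CPM in WT and 13163, 13718 and 14811 CPM in san:san. The genotypes overlapped, since WT replicate 3 lay below every san:san library. The log2 change was -0.34 ± 0.22 (edgeR adjusted p = 0.195), and it was called lower with RLE factors (-0.60, 0.0316), DESeq2 (-0.60, 0.0241) and total counts (-0.93, 0.00142). let-7d-5p stood at -0.19 ± 0.21 (0.415) and was called lower with total counts (-0.80, 0.00526) and without WT replicate 1 (-0.44, 0.0338). The mean 3p shares of this hairpin were 59.7% ± 11.7 in WT and 57.7% ± 0.900 in san:san (exact permutation p = 0.7), and the WT libraries spread more widely than the san:san libraries. let-7a-1-3p, with the let-7c-2-3p counts, was counted 25, 52 and 26 times in WT and 149, 166 and 93 times in san:san. Its CPM overlapped between genotypes, and the log2 change was -0.35 ± 0.26 (edgeR adjusted p = 0.245), which passed only with total counts (-0.95, 0.00574).

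The remaining members were let-7b-3p and let-7e-3p. let-7b-3p was counted 17, 26 and 15 times in WT and 100, 101 and 67 times in san:san, or 825 ± 334 and 700 ± 65.6 CPM, with overlapping libraries. It did not pass (log2 -0.14 ± 0.28, edgeR adjusted p = 0.676) except with total counts (-0.73, 0.0300). let-7b-5p was lower (-0.66 ± 0.19, edgeR adjusted p = 0.00683), a call lost without a count filter (0.0852). The ratio of the let-7b arms did not pass (0.51 ± 0.36, limma adjusted p = 0.291), so a difference between its arms was not shown. let-7e-3p was read 0, 2 and 1 times in WT and 5, 3 and 2 times in san:san, too few to enter the edgeR test. The ratio of its scaled counts was 0.668 with an exact 95% counting interval of 0.172 to 3.78, and a count of 0 in WT replicate 1 allows up to 211 CPM, taking 3 counts as the limit. let-7e-5p was 1.91-fold lower (-0.93 ± 0.20, edgeR adjusted p = 0.00114), a size of change that lies inside the counting interval of let-7e-3p, so it was not detectable at this depth. The ratio of the let-7e arms did not pass (1.27 ± 0.80, limma adjusted p = 0.233).

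**Figure D4:**
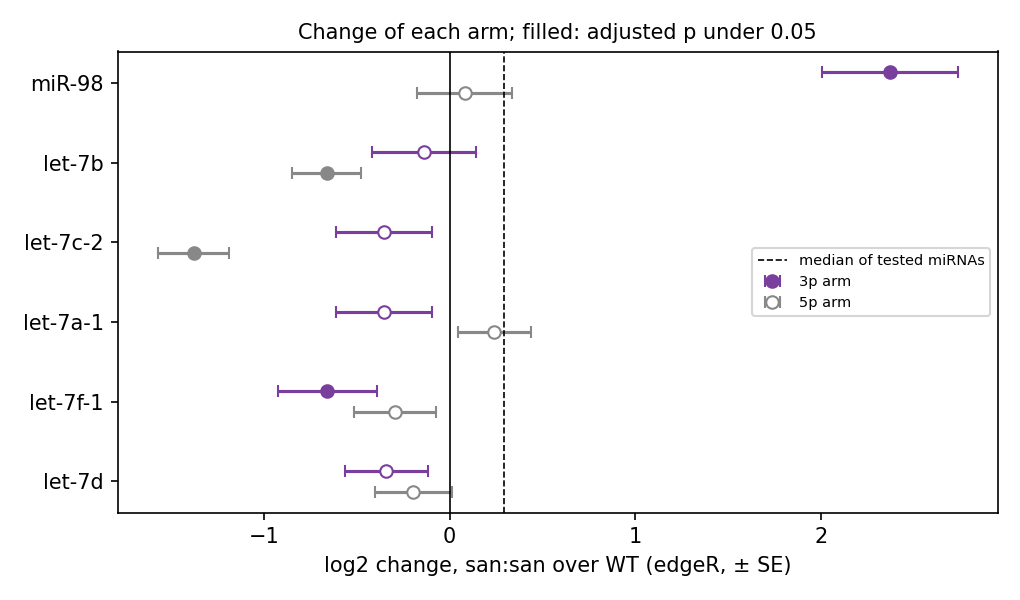
log2 change from WT to san:san (edgeR, ± SE) of the 3p arm (purple) and 5p arm (grey) of 6 hairpins; filled points passed at an adjusted p under 0.05, and the dashed line is the median of all tested miRNAs (0.30). Both arms of let-7d, let-7f-1, let-7b and let-7c-2 lie left of 0, miR-98-3p lies at 2.37 with miR-98-5p at 0.08, and let-7a-1 and let-7c-2 have the same 3p value because their 3p counts are identical.

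As a group, 1 of the 6 tested 3p arms rose, 1 fell and 4 did not pass, with a median log2 change of -0.34 against 0.30 for all 254 tested miRNAs. Calls of either direction were made for 33.3% of the tested members and 64.2% of all tested miRNAs. The 6 names count the shared let-7a-1-3p and let-7c-2-3p row under both, and with identical rows merged 5 members were tested, of which 1 rose and 1 fell. The members' summed share of the library was 3.14%, 2.49% and 1.93% in WT and 1.35%, 1.40% and 1.37% in san:san, with all san:san libraries below the WT libraries. The 5p partners, at 16.1% to 19.7% in WT and 9.13% to 11.4% in san:san, and the minor arms outside the family, at 5.84% to 6.57% and 3.52% to 4.01%, likewise did not overlap. These are shares of raw counts, and on the TMM scale let-7d-3p, which supplied most of the member counts, overlapped and did not pass. Their share of the counts of both arms of the member hairpins was 12.3% ± 2.18 in WT and 11.7% ± 1.19 in san:san, and without let-7d 2.37% ± 0.511 and 2.54% ± 0.214, with overlapping libraries each time. For comparison, of 53 tested minor arms of hairpins outside the let-7 family 16 rose and 19 fell. A minor arm was the arm with fewer raw counts summed over the 6 libraries, a sum in which the deeper san:san libraries weigh most. Arms low in san:san were thus more readily listed as minor. Neither the library shares of the minor arms nor their numbers of calls are therefore a comparison independent of genotype.

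Set against let-7d-3p in the same library, which again needs no scaling, miR-98-3p and let-7f-1-3p did not overlap between the genotypes. These ratios re-use the counts that did not overlap in CPM, so they are not separate evidence. The share of all miRNAs without overlap on this measure was not computed, and in CPM it was 70.9% of those tested. There were 0.909 ± 0.286 counts of miR-98-3p per 100 of let-7d-3p in WT and 5.44 ± 0.243 in san:san. The same ratio was 7.85 ± 0.677 and 7.65 ± 1.40 for let-7a-1-3p, and 4.57 ± 0.544 and 5.05 ± 0.490 for let-7b-3p, both overlapping. For let-7f-1-3p it was 5.23 ± 0.240 and 4.05 ± 0.118, without overlap (exact permutation p = 0.1). Among the counts that carry the seed UAUACAA, miR-98-3p supplied 6.25%, 3.54% and 4.84% in WT and 25.5%, 23.0% and 25.3% in san:san. All reads with this seed made up 15.6% ± 0.789 of the member counts in WT and 18.1% ± 1.46 in san:san (exact permutation p = 0.1). This group value is not separate from the miR-98-3p result, since miR-98-3p went from 0.765% to 4.44% of the member counts. In the same shares let-7f-1-3p went from 4.40% to 3.31%, let-7a-1-3p from 6.61% to 6.24% and let-7b-3p from 3.85% to 4.12%.

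The let-7 3p arms outside the 7 names were rare. let-7f-2-3p, whose hairpin is the neighbour of miR-98, was read 1, 1 and 2 times in WT and 9, 2 and 9 times in san:san, a ratio of scaled counts of 1.00 (exact 95% interval 0.336 to 4.03), and this interval overlaps that of miR-98-3p. It differs from let-7a-1-3p at 1 of 21 compared bases. let-7i-3p, with 13 counts in all WT libraries together and 56 in the san:san libraries, did not pass (log2 -0.24 ± 0.55, edgeR adjusted p = 0.704). let-7g-3p had 1 and 10 counts, with a ratio of 2.01 (0.285 to 87.0), and let-7a-2-3p 0 and 1. let-7c-1-3p was not among the 707 miRNAs with counts. The names let-7j and let-7k begin with 5p-type seeds and were left out of these counts of 3p arms, let-7k being lower (log2 -1.23 ± 0.44, edgeR adjusted p = 0.0257).

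By the root mean square difference of centred log2 CPM over the 6 libraries, the tested miRNAs outside the family that were most like miR-98-3p were miR-127-3p (0.233) and miR-342-3p (0.235). Both were higher in san:san, by log2 2.38 and 1.87. The genotype difference is part of the pattern that was matched, so this shared direction follows from the choice and is not separate evidence. miR-342-3p was also on the list of 6 used above as myeloid markers, and its specificity for that lineage was not tested. The nearest to let-7d-3p were miR-23a-3p (0.167) and miR-29a-3p (0.174). miR-23a-3p and miR-23b-3p were the nearest to let-7a-1-3p (0.167 and 0.174) and to let-7b-3p (0.192 and 0.221). let-7f-1-3p was nearest to miR-467a-3p and miR-467d-3p, which had identical values (0.244). Of the 4 arms of miR-99b and miR-125a, which are encoded beside let-7e, both 3p arms were lower, miR-99b-3p by log2 -2.93 and miR-125a-3p by -3.78, and both 5p arms did not pass (-0.12 and 0.21).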

How the data were processed

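Mature miRNA counts of exosomes from 3 WT and 3 san:san macrophage supernatants were compared, with groups and replicate numbers from the sample titles. Trizol was the RNA reagent, per the labels' protocols. One protocol field names an Illumina TruSeq RNA kit on total RNA and another names miRNA libraries by Illumina procedures, so the kit behind these counts is not settled. The submitters' processing notes name mm9. No aligner, trimming, exosome isolation or miRNA annotation was given in the sources used here. For each mature miRNA the authors deposited whole-number counts, and their scaled per-sample columns were not used. Columns from samples outside this series numbered 0.

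Counts were tested with edgeR 4.0.16 (R 4.3.3; quasi-likelihood, filterByExpr minimum 10, TMM, robust dispersion, genotype only) over the 254 miRNAs kept of 707, with Benjamini-Hochberg adjustment. Arm ratios were tested with limma 3.58.1 (trend, robust) over 58 hairpins, with a pseudocount of 1 in proportion to library size. The SE of a log2 change was taken from the quasi-likelihood F. A 3p name with a locus number was paired with the 5p name without it. Named miRNAs were the members, their 5p partners, other let-7 names, neighbours of let-7e and, per member, the 2 most alike tested miRNAs (prior count 2). Alternatives were other scalings and filters, DESeq2 1.42.0, merged identical rows, the replicate number as a block, other arm pseudocounts and filters, and each library left out. The members and lists were chosen with earlier results of these data known. Replicates of a genotype differed by more than sampling noise.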

Additional observations from a re-analysis of the deposited data

How the results depend on the processing

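Depth limits the WT side most, since let-7e-3p had 3 reads and miR-98-3p 11 there. The number of members called lower, 1 with TMM, was 2 with RLE factors and DESeq2, 5 with total counts (the shared let-7a-1 and let-7c-2 row counted under both names), 0 without a count filter and 0 with the replicate block, and 0 to 1 with a library left out. The number called higher stayed at 1 in all 15 alternatives. Over all miRNAs, the number higher fell from 88 to 49 with total counts, where 101 were lower. The number of member hairpins with a raised 3p share, 2, was 1 with the 10-count minimum over both arms, 1 with the replicate block, and 1 to 2 with a library left out. Over all hairpins 6 to 13 were raised and 5 to 19 lowered with a library left out, of 58 to 84 tested. When each arm needed 10 counts in each genotype, 30 hairpins were tested, of which 10 were raised and 6 lowered. The main numbers were 11 and 13 of 58. The cause was not tested.

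Replicate numbers were not taken as pairs, because deviations of same-numbered libraries correlated at 0.10, -0.08 and 0.26 and not every library correlated best with its own number. With the replicate block, let-7f-1-3p (edgeR adjusted p = 0.0760) and the let-7c-2 arm ratio (limma adjusted p = 0.0769) lost their calls, and no other member call changed.

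Changes of sign were seen only for values that did not pass, apart from the let-7c-2 arm ratio (-0.38 with the summed 5p partner). let-7b-3p was at log2 0.0027 without a count filter and -0.35 to 0.019 with a library left out. let-7a-5p was at -0.016 with RLE factors, -0.34 with total counts and -0.016 with DESeq2. miR-98-5p was at -0.17 with RLE factors, -0.0031 with TMMwsp, -0.51 with total counts, -0.041 with the top 5 miRNAs kept out of library sizes, -0.023 with a minimum count of 20, -0.20 with DESeq2 and -0.18 to 0.30 with a library left out. The arm ratio of let-7d ran from -0.48 to 0.24 with a library left out, and that of let-7e was -0.24 with a fixed pseudocount, where the pseudocount no longer follows depth.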
